A study of Mus musculus with 60 samples.

Results

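The 10 genes described here, Myl2, Myl7, Myl3, Myh6, Myh7, Tnni3, Nppa, Nkx2-5, Tbx20 and Gata4, are genes of the heart that were measured in embryonic mouse jaw. They are 10 of the 18193 genes with a named probe set on the array. They were taken by gene symbol, with the probe set of highest mean over all 60 arrays for each gene, because Myl2 and Myl7 were high in the proximal mandible at E10.5, where E stands for embryonic day. The values of that group therefore chose the genes, and their comparison between proximal and distal mandible at E10.5 is given as a description with no test. Calls of other genes in that comparison are printed for scale only.

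The study profiled the maxilla and the mandible of C57Bl/6 mouse embryos, each cut into a distal and a proximal piece, daily from E10.5 to E14.5. These 20 groups of 3 arrays have no treatment or mutation in the labels, and each array holds the bulk RNA of a whole tissue piece. Whether a group's 3 arrays came from separate embryos or pools is not in the labels, so the p-values measure the spread between arrays, which may be technical. In bulk RNA, fewer cells of a type and less RNA per cell cannot be told apart.

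The heart is built from cardiomyocytes, whose contractile apparatus holds myosin heavy chains, essential and regulatory myosin light chains and a calcium-sensing troponin complex. Atrial and ventricular muscle differ in the chains they use: Myl7 and Myh6 are typical of atrial and early embryonic heart muscle, and Myl2 of ventricular muscle. Some of these proteins are shared with slow skeletal muscle, which uses Myh7, Myl2 and Myl3, whereas Myl7, Tnni3 and Nppa are regarded as cardiac. At the earliest of these stages the heart and its outflow tract lie close below the mandibular arch, and the jaw muscles form from head mesoderm inside that arch.

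All values are log2 signals. A group mean of 4.78 or less is called low here, and a gene that low was not shown to be present. This limit is the largest 25th percentile found on an array. A fold against a low group is written as "at least", since it is taken against the measured signal of that group. Array medians ran from 6.06 to 6.31. The labels name 4 batches, and both pieces of a jaw at an age always share a batch. Mandible and maxilla share a batch at E11.5 and E12.5 but not at the other ages, so batch cannot be told apart from jaw there. The mandible ages fall in 3 batches, E10.5 with E11.5, E12.5 alone, and E13.5 with E14.5, so across these batches age and batch cannot be told apart, and any order of the 20 groups crosses batches. The labels call the tissue bone: of 4 measured genes of mature bone cells, Ibsp, Dmp1 and Phex were low in both mandible pieces at E10.5, and none of the 4 was low in the mandible on the last 2 days. In the mandible at E11.5, the arrays within a group differed in muscle genes, with list means of 20 skeletal muscle genes from 7.35 to 8.78 in proximal and from 7.17 to 8.09 in distal arrays.

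At E10.5 the proximal mandible stood apart in the contractile genes. Myl2, the ventricular regulatory light chain, read 11.66, 11.73 and 11.80 in the 3 proximal arrays and 4.52, 4.49 and 4.61 in the 3 distal arrays. The distal mean was low, and the log2 difference of 7.19, at least 146-fold, was the highest of all 18193 genes. Myl7, the atrial regulatory light chain, read 11.14, 11.13 and 11.37 proximally against 6.08, 6.09 and 6.27 distally, a log2 difference of 5.07 or 33.5-fold and the second highest. For both genes, the proximal arrays lay close together and far from every distal array.

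The myosin heavy chains were high in the same arrays. Myh6, the alpha heavy chain, read 8.12, 8.10 and 8.12 proximally and 4.13, 4.08 and 4.29 distally, a log2 difference of 3.95 that ranked 5 of 18193, against a low distal group. Myh7, the beta heavy chain of ventricle and slow muscle, read 9.46, 9.63 and 9.66 against 6.61, 6.34 and 6.02, a log2 difference of 3.26 that ranked 8. Myl3, the essential light chain of ventricle and slow muscle, read 8.10, 8.46 and 8.44 against 6.18, 6.16 and 5.98, a log2 difference of 2.23. Tnni3, cardiac troponin I, read 7.02, 7.36 and 7.24 against 5.33, 5.28 and 5.15, a log2 difference of 1.95. In each of these 4 genes the proximal and distal arrays did not overlap.

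The remaining 4 genes, which encode a hormone and transcription factors, did not share the size of that difference on the probe sets used; a second set of Tbx20, described last, differed by 2.98. Nppa, which encodes the atrial natriuretic peptide, read 4.40, 4.52 and 4.36 proximally and 3.68, 4.11 and 3.79 distally, and its mean was low in all 20 groups, so no fold is given. Gata4, a zinc finger factor of heart and gut, read 5.47, 5.61 and 5.35 against 5.33, 5.22 and 4.80, a log2 difference of 0.36. Tbx20, a T-box factor of the heart, read 5.42, 5.37 and 5.51 against 5.01, 5.47 and 5.22 on the probe set used, so that its arrays overlapped. Nkx2-5, the homeobox factor of early heart and pharyngeal arch, went the other way, with 6.46, 6.42 and 6.44 proximally and 6.74, 6.74 and 7.06 distally.

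Thus 6 of the 10 genes were at least 2-fold higher in the proximal mandible at E10.5, a size reached by 0.511% of all genes. All 3 proximal arrays lay above all 3 distal arrays for 8 of the 10, against 17.4% of all genes, and Nkx2-5 was the gene with all 3 below (19.7% of all genes). These shares are given for scale only, since this difference chose the genes. For Myl2, Myl7, Myh6, Tnni3 and Nppa, the 3 proximal mandible arrays of E10.5 lay above all other 57 arrays, as they did for 2.49% of all genes. The gap to the highest other array was 4.62 for Myl7, 2.96 for Myh6, 1.20 for Myl2 and 0.71 for Tnni3 on the log2 scale. Myl3 and Myh7 were reached or passed by other arrays.

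**Figure D1:**
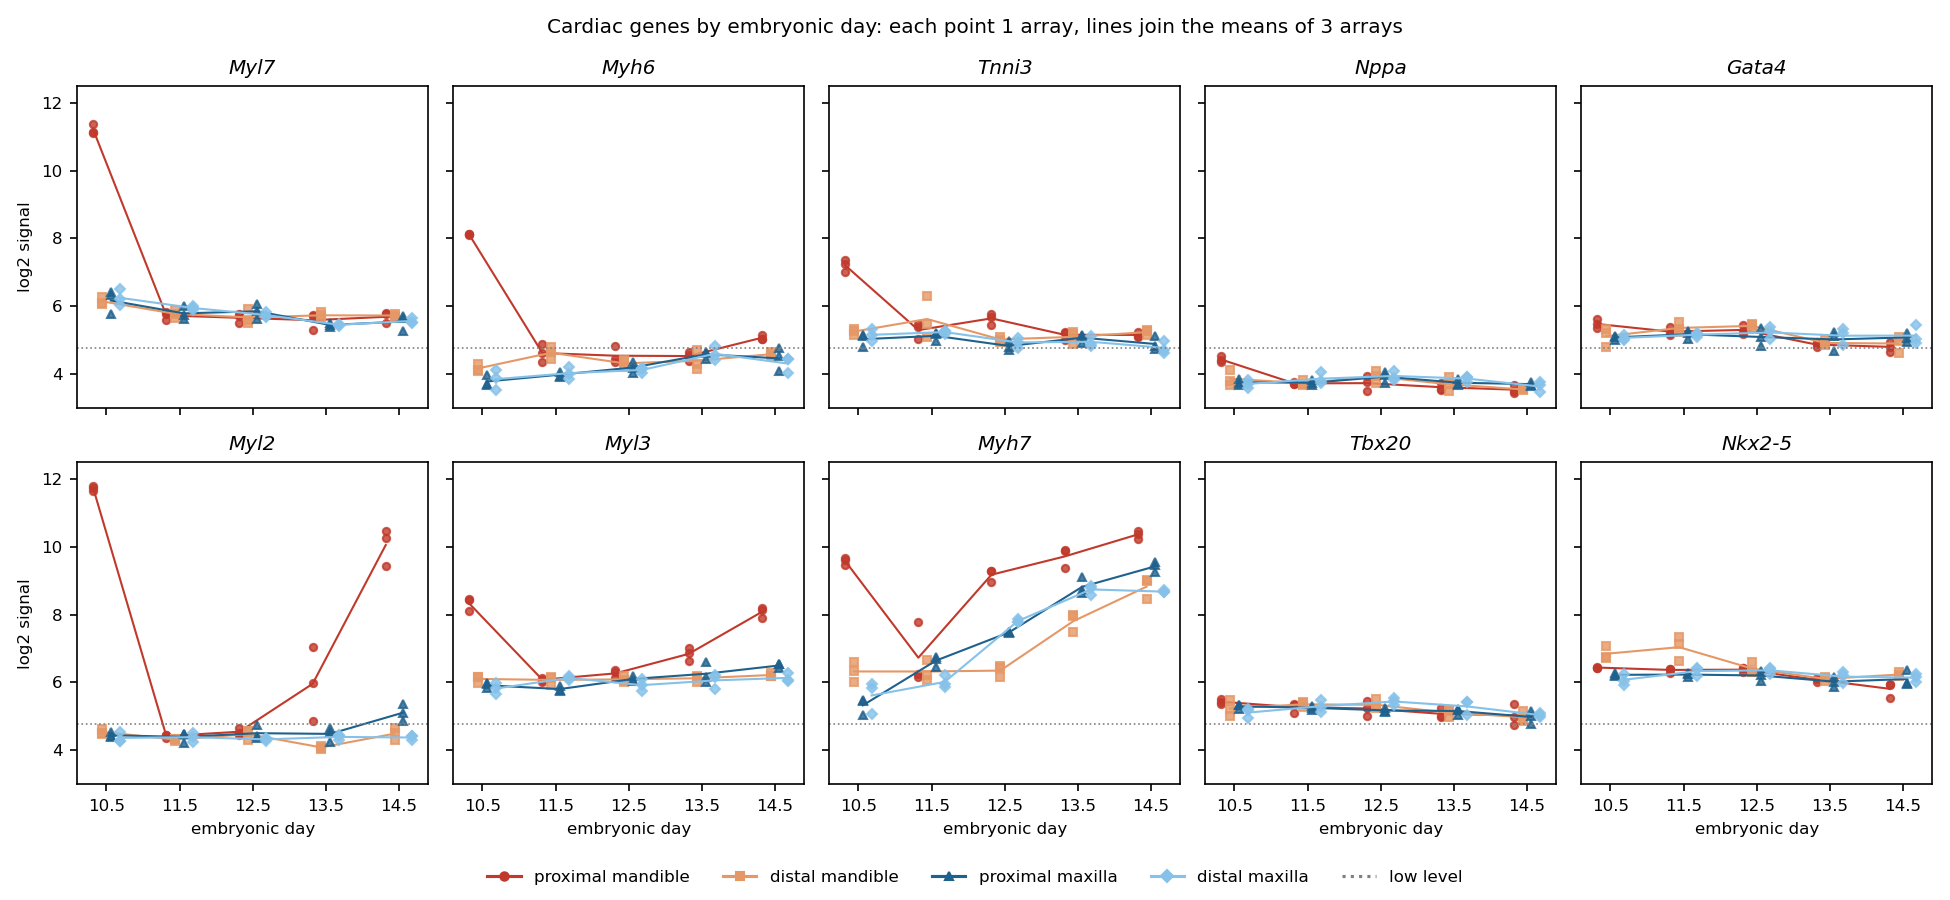
Log2 signal (vertical axis) of the 10 cardiac genes against embryonic day (horizontal axis) in proximal and distal mandible and maxilla. Each point is 1 array, lines join the means of 3 arrays and the dotted line is the low level of 4.78. Myl7, Myh6 and Tnni3 peak once in the proximal mandible at E10.5, Myl2 and Myl3 are high there at E10.5 and again at E14.5, and Myh7 is lower there at E11.5 than at E10.5 and highest at E14.5.

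Myl7 was high in that group alone. Its mean was 11.21 ± 0.14 (SD, n = 3) in the proximal mandible at E10.5 and lay between 5.45 and 6.25 in the other 19 groups, the next being the distal and proximal maxilla at E10.5 with 6.25 and 6.17. The median SD within a group was 0.13, so the neighbours in the order of these 19 groups mostly lay within the spread of their arrays. In the proximal mandible the mean was 5.73 at E11.5 and the 3 arrays at E14.5 read 5.76, 5.81 and 5.50, against 5.69, 5.77 and 5.72 distally. No position difference of Myl7 passed the test in either jaw at the ages tested, E11.5 to E14.5 in the mandible and E10.5 to E14.5 in the maxilla.

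Myh6 and Tnni3 had the same single peak with smaller later differences. Myh6 was low in 18 of 20 groups, the exceptions being the proximal mandible at E10.5 (8.11) and at E14.5 (5.07). Tnni3 had a mean of 7.21 ± 0.17 (SD, n = 3) in the proximal mandible at E10.5 and of 5.64 at E12.5, its second highest group, and 1 group was low.

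Myl2 was present early and again late, in groups of different batches. Its mean was low in 16 of 20 groups, and the other 4 were the proximal mandible at E10.5 (11.73), at E14.5 (10.06) and at E13.5 (5.96), and the proximal maxilla at E14.5 (5.11). In the proximal mandible it was low at E11.5 (4.42) and E12.5. Myl3 had the same order, with its highest means in the proximal mandible at E10.5 (8.33), E14.5 (8.08) and E13.5 (6.84) and a median of 6.11 over the 20 groups. Its 3 arrays at E14.5 (8.20, 7.89 and 8.15) overlapped those at E10.5. Myh7 was highest in the proximal mandible at E14.5 (10.37 ± 0.12, SD, n = 3), followed by E13.5 (9.72) and E10.5 (9.58).

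The bases before the transcription starts of Myl7, high once, and of Myl3, high at both ends of the series, are shown to set these patterns beside the sequence. Each run is the 250 bases before the RefSeq start, 5′ to 3′ on the gene's strand, build GRCm38.p6: chr11:5898783-5899032 on the minus strand for Myl7 and chr9:110763428-110763677 on the plus strand for Myl3. Capitals mark matches to 6 motifs searched on both strands: the GATA motifs AGATAA and TGATAA, the NK homeobox motif CAAGTG, the T-box motif GGTGTG, the CArG box bound by serum response factor and the MEF2 site.
Myl7: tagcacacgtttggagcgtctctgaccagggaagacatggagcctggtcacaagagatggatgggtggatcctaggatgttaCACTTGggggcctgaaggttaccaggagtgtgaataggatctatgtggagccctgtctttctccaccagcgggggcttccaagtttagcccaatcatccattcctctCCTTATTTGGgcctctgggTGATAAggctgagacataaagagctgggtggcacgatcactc
Myl3: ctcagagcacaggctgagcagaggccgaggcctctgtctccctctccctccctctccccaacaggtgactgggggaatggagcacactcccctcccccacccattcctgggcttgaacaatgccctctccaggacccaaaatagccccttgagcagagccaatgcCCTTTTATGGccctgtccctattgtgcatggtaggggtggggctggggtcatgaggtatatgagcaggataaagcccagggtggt
Myl7 holds a CArG box 61 to 52 bases before the start, TGATAA 42 to 37 bases before it and the NK motif on the opposite strand 168 to 163 bases before it. Myl3 holds a CArG box 85 to 76 bases before the start. Of 32851 such windows in the RefSeq table, 1.47% hold a CArG box, 7.94% TGATAA, 11.6% the NK motif, 9.99% AGATAA, 16.3% GGTGTG and 2.92% the MEF2 site. Windows were matched for 9 of the 10 genes, 11 in all. Among these 9 genes a CArG box was found for 2 (Myl7 and Myl3), TGATAA for 2 (Myl7 and Nppa), CAAGTG for 2 (the same pair), GGTGTG for 2 (Tnni3 and Nppa), AGATAA for 1 (Myl2) and the MEF2 site for 0. A match is a run of letters and not a measured binding site.

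Other heart and muscle genes were set beside the 10 genes in lists that do not include them. At E10.5 the 4 largest differences among 20 genes shared by heart and skeletal muscle were those of Tnnt2 (log2 difference 4.95), Myl4 (4.61), Tnnc1 (3.77) and Actc1 (3.54), which encode thin filament proteins and a light chain. Of these 20 genes, 14 were called higher and 1 lower in the proximal mandible, and their median log2 difference was 1.41, against -0.01 over all genes. Among 18 measured cardiac-enriched genes, 9 were called higher and 0 lower with a median of 0.59, led by Ankrd1 (3.17), Csrp3 (2.28), Hspb7 (1.62) and Pln (1.53). The background was 19.1% of all genes called in this comparison, 9.26% higher and 9.83% lower. Because the 10 genes were chosen on it, nothing is read from these counts.

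Skeletal muscle genes read much the same in both pieces at E10.5. Of 20 measured, Acta1, skeletal alpha actin, was the 1 gene called (log2 difference 1.51), the median was 0.01, and the list mean was 6.05 to 6.12 in the proximal and 6.02 to 6.06 in the distal arrays. These list means lay near the array medians (6.06 to 6.31), and 4 of the 20 genes were low proximally and 3 distally. The mean of the shared list was 7.67 to 7.78 in proximal and 6.03 to 6.08 in distal arrays. Among genes of other cells that such a piece could hold, 4 of 7 smooth muscle genes were called higher and 0 lower, with list means of 7.35 to 7.37 against 6.56 to 6.73. Of 9 genes of endothelium and endocardium 2 were called higher and 3 lower, of 7 epicardial genes 1 and 1, and of 7 genes of red cells 0 and 0. The list means of endothelium were 8.20 to 8.27 proximally and 8.32 to 8.40 distally. Lists of other tissue also stood apart between the pieces. Of 8 surface epithelium genes 0 were called higher and 5 lower (list means 9.37 to 9.41 proximally against 9.81 to 9.83 distally), and of 7 liver and gut endoderm genes 0 and 3 (6.62 to 6.77 against 7.16 to 7.28). Of 9 genes of jaw mesenchyme 6 were called higher and 1 lower (10.41 to 10.43 against 10.03 to 10.04), and of 6 measured regulators of head muscle progenitors 2 and 0 (7.56 to 7.63 against 7.23 to 7.38). Of 8 neuronal genes 0 were called higher and 1 lower (6.12 to 6.22 against 6.34 to 6.41), and of 6 Hox genes of the arches behind the jaw 0 and 1 (5.94 to 5.96 against 6.17 to 6.22). Among 18 cardiac regulators 7 were called higher and 3 lower: Fgf8 (1.76) and Tbx18 (0.98) were higher and Isl1 (-1.74) and Hand2 (-0.92) lower, these being the 4 largest differences. The part of these cells in the values of the 10 genes was not tested.

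**Figure D2:**
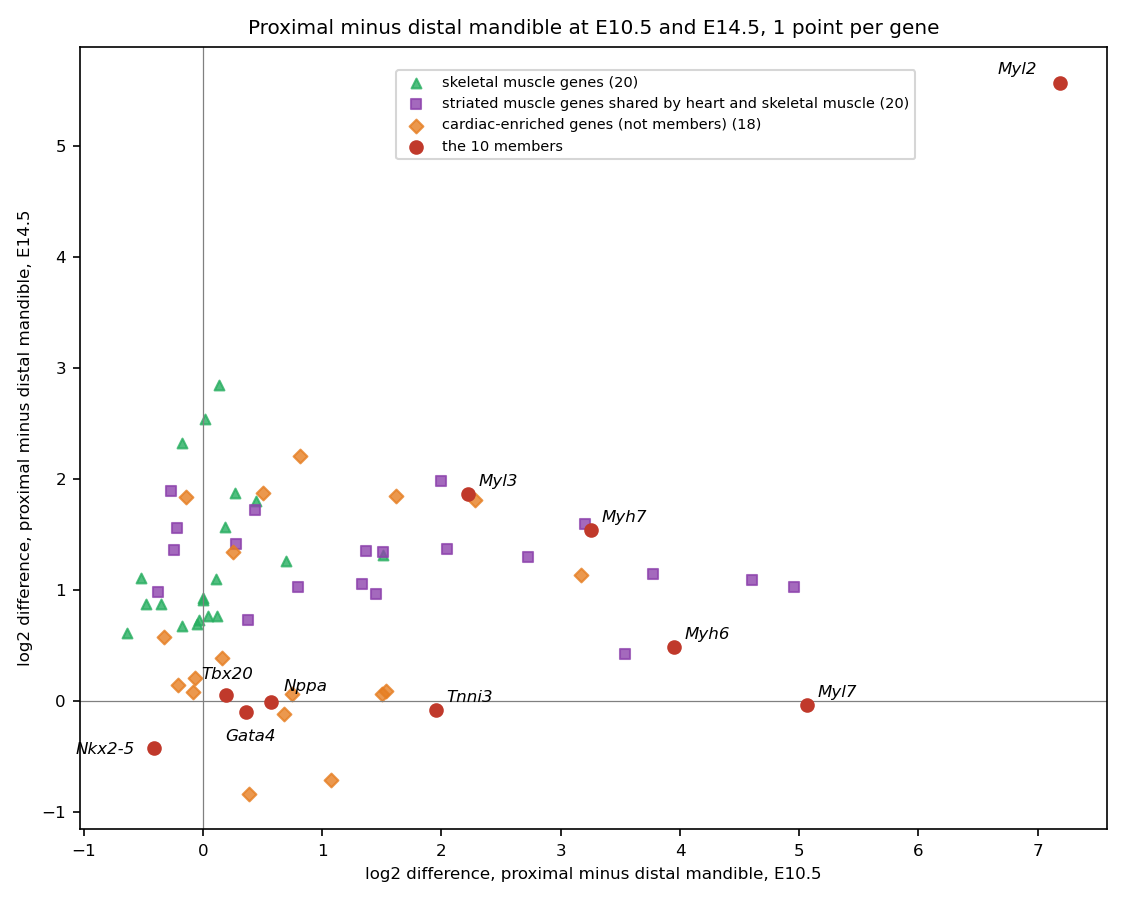
Log2 difference of proximal minus distal mandible at E10.5 (horizontal axis) and at E14.5 (vertical axis), 1 point per gene and 3 arrays per group, for the 10 cardiac genes (red) and 3 gene lists. Myl2 lies far out on both axes, Myl7 at 5.07 and close to 0, and the skeletal muscle genes spread along the vertical axis with a median of 1.01 at E14.5 and 0.01 at E10.5.

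The distal to proximal comparison at later ages did not choose the genes and was tested with limma over all 18193 genes, with Benjamini-Hochberg adjusted p under 0.05 as the call. At E11.5, none of the 6 contractile genes that were high in the proximal mandible at E10.5 passed the test there. Of the 10 genes 1 was called, against 8.93% of all genes: Nkx2-5 was lower proximally, with 6.29, 6.41 and 6.41 against 7.34, 6.65 and 7.14 (log2 difference -0.67, adjusted p = 0.000106). Myl2 was low in both pieces. Of the genes that led at E10.5, Ankrd1 was also low proximally at E11.5 (4.60), whereas Actc1 (12.25) and Tnnc1 (9.76) were close to their proximal means at E10.5 (12.17 and 9.59). Distally Actc1 read 11.70 and Tnnc1 8.57 at E11.5, so their position differences were 0.55 and 1.19. Proximal Tnnt2 (8.32) and Myl4 (8.92) read lower than at E10.5 (9.56 and 9.91). Myh7 read 7.78, 6.24 and 6.17 proximally, and its highest array was the one with the highest skeletal muscle list mean (8.78). Tnni3 read 6.31 in 1 distal array and 5.04 to 5.47 in the other 5. The distal array with the highest skeletal muscle list mean (8.09) was replicate 2. Distal replicate 3 and proximal replicate 1 had the highest medians over all genes, and without both the difference of Nkx2-5 was -0.58 (adjusted p = 0.00849). When only the arrays of these 2 groups were fitted, its call was lost (-0.67, adjusted p = 0.12).

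At E12.5, 2 of the 10 genes were called, both higher in the proximal mandible, against 32.7% of all genes. Myh7 read 9.30, 9.29 and 8.95 against 6.47, 6.16 and 6.42, a log2 difference of 2.83 ± 0.23 (SE, adjusted p = 1.89e-14). Tnni3 read 5.45, 5.78 and 5.69 against 5.10, 5.02 and 4.95, a log2 difference of 0.62 (adjusted p = 0.00169). Neither overlapped between pieces. Skeletal muscle genes differed in the same arrays: 19 of 20 were called higher, with a median log2 difference of 3.26, and 20 of 20 shared genes, with a median of 2.93. The 8 cardiac-enriched genes called higher of 18 were led by Sln (3.97), Myoz2 (2.86), Casq2 (2.66) and Corin (2.31), of which the first 3 are also expressed in skeletal muscle. Other genes of that list read lower proximally, among them Ryr2 (-1.10) and Nebl (-0.31).

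At E13.5, Myl2 was above the low level again in the proximal mandible. It read 5.98, 7.05 and 4.85 proximally and 4.04, 4.07 and 4.14 distally, a log2 difference of 1.88 ± 0.23 (SE), at least 3.67-fold (adjusted p = 5.44e-09). The proximal arrays spread widely, and all 3 lay above the distal ones. Myl3 was higher by 0.72 (adjusted p = 4.14e-06) and Myh7 by 1.91 (adjusted p = 3.16e-09). These were 3 of the 10 genes, all higher, against 25.3% of all genes. Of the skeletal muscle genes, 20 of 20 were higher (median 1.84).

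At E14.5, Myl2 and Myl3 were high again in the proximal mandible. Myl2 read 10.47, 9.45 and 10.26 proximally and 4.65, 4.51 and 4.30 distally, a log2 difference of 5.57 ± 0.23 (SE), at least 47.4-fold (adjusted p = 3.8e-25). Myl3 read 8.20, 7.89 and 8.15 against 6.27, 6.20 and 6.19, a log2 difference of 1.86 ± 0.12 (SE, adjusted p = 1.35e-17). Myh7 was higher by 1.54 (adjusted p = 5.64e-07) and Myh6 by 0.49, at least 1.40-fold over a low distal mean (adjusted p = 0.0121). Nkx2-5 was lower, with 5.54, 5.96 and 5.94 against 6.18, 6.31 and 6.21 (log2 difference -0.42, adjusted p = 0.00848). In all, 5 of the 10 genes were called, against 26.8% of all genes.

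The calls of Myh6 and Nkx2-5 at E14.5 were lost when single arrays were left out, and that of Myh6 also when its probe sets were averaged (0.23, adjusted p = 0.0723). Without replicate 1 of the distal or replicate 2 of the proximal mandible the adjusted p of Myh6 was 0.0503 or 0.0504, with differences of 0.45 in both. Without replicate 1 of the proximal mandible Nkx2-5 differed by -0.28 (adjusted p = 0.123). Among the contractile genes regarded as cardiac, Tnni3 read 5.23, 5.11 and 5.13 proximally at E14.5 against 5.26, 5.16 and 5.29 distally, and neither it nor Myl7 passed the test.

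Skeletal muscle genes were higher in the same arrays. At E14.5, 19 of 20 skeletal muscle genes were called higher in the proximal mandible (median log2 difference 1.01, all genes -0.01), led by Ckm (2.85), Myf6 (2.54), Tnnt3 (2.33) and Tnni2 (1.87). Their list mean was 10.85 to 11.07 in proximal and 9.65 to 9.78 in distal arrays. Of the shared genes 19 of 20 were higher (median 1.32), led by Ldb3 (1.98) and Trdn (1.89). Of the cardiac-enriched genes 8 of 18 were higher and 2 lower (median 0.30), led by Lmod2 (2.20), Myoz2 (1.87) and Hspb7 (1.84). Other lists moved in the same comparison: 8 of 9 endothelial genes, 6 of 8 neuronal genes and 6 of 6 Hox genes were higher. Their part in the values of the 10 genes was not tested.

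**Figure D3:**
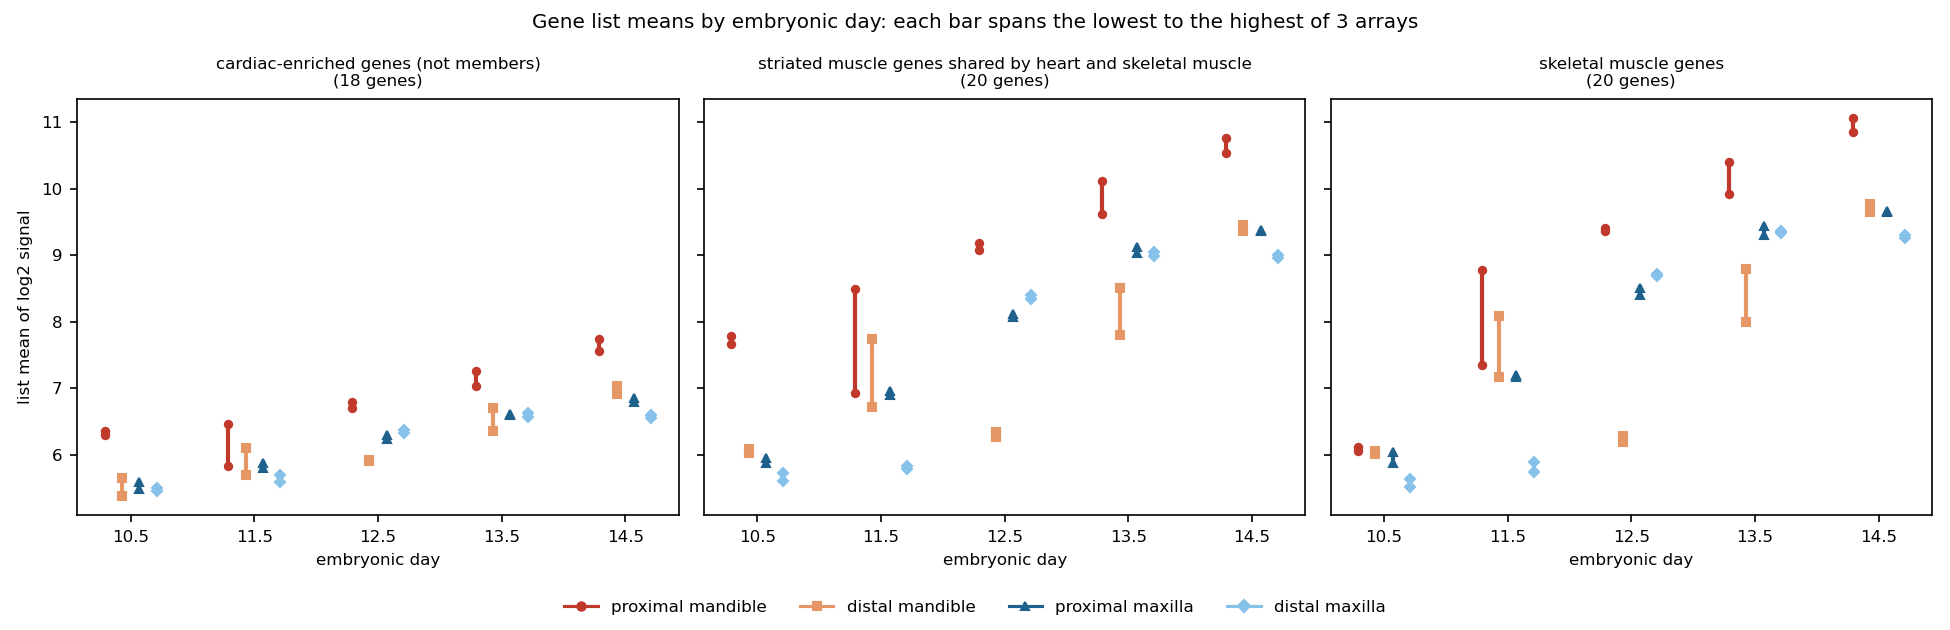
Mean log2 signal of 3 gene lists (vertical axis) against embryonic day (horizontal axis) in the 4 jaw pieces, each bar spanning the lowest to the highest of 3 arrays. In the proximal mandible the skeletal muscle list is near the other pieces at E10.5 (6.05 to 6.12) and highest at E14.5 (10.85 to 11.07), whereas the shared list is already raised at E10.5.

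Between E13.5 and E14.5, both in 1 batch, 4 of the 10 genes changed in the proximal mandible, all upwards, against 21.4% of all genes. Myl2 rose by 4.10 (SE 0.23, adjusted p = 1.1e-19) and Myl3 by 1.24 (adjusted p = 1.51e-11), while Myh7 rose by 0.65 (adjusted p = 0.0359) and Myh6 by 0.54 over a low mean (adjusted p = 0.00648). Ckm, muscle creatine kinase, rose by 3.28 in the same step, Myf6 by 1.99 and Hspb7 by 1.89. These were among the largest rises of the skeletal muscle and cardiac-enriched lists, and other genes of these lists rose less or fell. In the proximal mandible at E13.5 and E14.5, Myod1 read 9.34 and 9.39, Pax7 7.80 and 7.94, and Corin 9.15 and 8.42. The position difference itself grew between these ages for 2 of the 10 genes, against 1.7% of all genes: by 3.69 for Myl2 (adjusted p = 8.79e-12) and by 1.14 for Myl3 (adjusted p = 9.83e-06). Under the alternatives described below the adjusted p of Myl2 reached 0.00173. On another probe set of Myl3 the proximal mean rose by 0.26. Its proximal and distal means were 7.46 and 6.24 at E13.5, and 7.72 and 6.48 at E14.5. The rise of Myh7 lost its call without replicate 3 of E13.5 (0.47, adjusted p = 0.223), replicate 1 of E14.5 (0.59, adjusted p = 0.109) or replicate 3 of E14.5 (0.64, adjusted p = 0.0869), and that of Myh6 without replicate 3 of E13.5 (0.46, adjusted p = 0.0519).

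On the probe sets used, the maxilla had no peak of these genes at E10.5. The second set of Tbx20, described last, had means of 6.03 in the proximal and 4.02 in the distal maxilla at E11.5. At E10.5, 0 of the 10 passed the test, against 20.2% of all genes, and Myl7 read 6.41, 5.76 and 6.34 proximally and 6.50, 6.21 and 6.04 distally. None passed it at E12.5 or E13.5, where 39% and 15.7% of all genes did. At E11.5, 2 of the 10 were called against 34.7% of all genes: Myh7 was higher by 0.63 (adjusted p = 0.0283) and Myl3 lower by -0.33 (adjusted p = 0.0275). Each lost its call in 4 of the 6 fits that left out 1 array of these groups, Myh7 without distal replicate 1 (0.55) or 2 (0.60) or proximal replicate 1 (0.60) or 3 (0.57), and Myl3 without distal replicate 2 (-0.32) or 3 (-0.30) or proximal replicate 1 (-0.32) or 3 (-0.29), with adjusted p from 0.0646 to 0.105.

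At E14.5, 3 of the 10 genes were higher in the proximal maxilla. Myl2 read 5.38, 4.85 and 5.10 against 4.41, 4.31 and 4.41, a log2 difference of 0.73 over a low distal mean (adjusted p = 0.0101). Myl3 was higher by 0.37 (adjusted p = 0.0138) and Myh7 by 0.75 (adjusted p = 0.00847). Over all genes 33.7% were called in this comparison. Myl2 lost its call without proximal replicate 1 (0.60, adjusted p = 0.0706), and Myl3 without distal replicate 1 (0.32, adjusted p = 0.0668) or 2 (0.33, adjusted p = 0.0576). All 8 neuronal genes were higher in the same proximal arrays (median 4.14), and 4 of 20 skeletal muscle genes were higher and 1 lower (median 0.41).

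The position effects of some of the 10 genes differed between the jaws. The test of the difference between jaws called 2 of the 10 genes on E12.5 (33.4% of all genes), 3 on E13.5 (12.6%) and 2 on E14.5 (22.6%), each with a larger proximal excess in the mandible. On E12.5 and E14.5 the share of the 10 genes was smaller than that of all genes. Of the 3 on E13.5, Myl3 (0.52, adjusted p = 0.031) lost its call in 7 of 12 fits without 1 array (without distal replicate 2 or proximal replicate 1 or 2 of the mandible, or distal replicate 2 or 3 or proximal replicate 1 or 2 of the maxilla), under repeated quantile normalization (0.45, adjusted p = 0.0777) and with only the arrays compared (adjusted p = 0.115). For Myh7 at E12.5 the mandible exceeded the maxilla by 3.16 (SE 0.33, adjusted p = 2.4e-11), and both jaws share a batch at that age. For Myl2 at E14.5 it did so by 4.83 (SE 0.33, adjusted p = 8.8e-17) and for Myl3 by 1.49 (SE 0.17, adjusted p = 8.67e-10), with the jaws in different batches.

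Direct comparisons of mandible with maxilla were made at E11.5 and E12.5, within a batch. At E11.5, 1 of the 10 genes was called in proximal tissue (32.1% of all genes) and 2 in distal tissue (25.7%). Nkx2-5 was higher in the distal mandible by 0.71 (adjusted p = 1.6e-05), and Myh6 was called in both pieces with low means in both jaws, so no fold is given. At E12.5 in proximal tissue 2 were called (43.6%), Myh7 higher in the mandible by 1.70 and Tnni3 by 0.81 (adjusted p = 1.7e-08 and 2.76e-05). In distal tissue 1 was called (23.2%), Myh7, which was lower in the mandible (log2 difference -1.46, adjusted p = 1.54e-06). The same was true of 19 of 20 skeletal muscle genes in distal tissue (median -2.89).

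In the proximal maxilla, 3 of the 10 genes changed between E12.5 and E13.5 (35.9% of all genes) and 0 between E13.5 and E14.5 (16.8%). Myh7 rose by 1.34 (adjusted p = 4.72e-06), Myh6 was called with low means at both ages, and Myl7 fell by 0.40 (adjusted p = 0.0167). Myh6 lost its call in 4 of the 6 fits that left out 1 array: without replicate 1 or 2 of E12.5, or replicate 1 or 3 of E13.5 (adjusted p from 0.0842 to 0.169). Myl7 lost its call without replicate 1 of E12.5 (-0.29, adjusted p = 0.144) or replicate 2 of E13.5 (-0.37, adjusted p = 0.0609).

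The genes most like Myl7 and Myl2 across the 20 group means were sought among 11103 genes with a highest group mean of at least 7, by Pearson correlation and as a description. Predicted gene models and sex-linked genes were left out of this search. For Myl7 they were Mybpc3, cardiac myosin binding protein C (r = 0.91), Tnni3 (0.90) and Myh6 (0.88), followed by Icmt, Def8, Ehmt2, Csnk1g2, Nrd1, Cnnm3 and Tsc2 down to 0.80. The genes from Icmt to Tsc2 varied little, with ranges over the 20 group means of 0.57 to 1.16, against 5.76 for Myl7. Without the proximal mandible at E10.5, r for the first 3 over 19 groups was -0.33, 0.17 and -0.69, so those likenesses rested on that group. For Myl2 they were Myl3 (0.98), Hspb7, a small heat shock protein of heart and skeletal muscle (0.92), and Myh6 (0.85), then Mrtfa, Mybpc3, Myl7 (0.74), Aldoa, Tnni3, Ap1b1 and Npepps (0.69). Of these, Mrtfa, Aldoa, Ap1b1 and Npepps had ranges of 0.50 to 0.87. Without the proximal mandible at E10.5, Myl3 kept 0.96 and Hspb7 0.95, while Myh6 had 0.57 and Myl7 -0.15. Among these 19 groups Myl2 was far highest in the proximal mandible at E14.5 (10.06, next 5.96), which weighs heavily in these values. By ranks over all 20 groups (Spearman), the correlation with Myl2 was 0.70 for Myl3, 0.30 for Hspb7, 0.37 for Myh6 and -0.13 for Myl7. With Myl7 it was 0.03 for Mybpc3, 0.37 for Tnni3 and -0.395 for Myh6. The points share arrays, normalization and batches.

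Mybpc3 and Hspb7 show both patterns outside the 10 genes. Mybpc3 had a mean of 8.02 in the proximal mandible at E10.5 and between 6.27 and 6.48 there at the 4 later ages. Hspb7 had 7.27 at E10.5 and 8.01 at E14.5, with 5.58, 5.40 and 6.12 on the days between.

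Other probe sets of the same genes gave different pictures for Tbx20, Myl3 and Myh6. A second probe set of Tbx20 read 6.50, 6.97 and 6.99 in the proximal and 3.51, 3.80 and 4.21 in the distal mandible at E10.5, a log2 difference of 2.98 against 0.20 on the set used. That set also read 5.97, 5.87 and 6.27 in the proximal maxilla at E11.5 and had a mean of 5.06 in the distal maxilla at E12.5, with low means in the other 17 groups. For Myl3 the difference at E10.5 was 2.23 on the set used and 5.15 and 1.40 on the other two, and at E14.5 it was 1.86, 3.36 and 1.24 in that order. The direction was the same on all 3 sets at both ages. From E13.5 to E14.5 the proximal mandible rose by 1.24, 1.73 and 0.26 in that order. For Myh6 a second set was low in all 20 groups, with a difference of 0.12 at E10.5. A probe set annotated to both Myh7 and Myh6, and so assigned to neither, differed by 3.46 at E10.5 and 1.57 at E14.5. Another set annotated to both was low in all 20 groups and differed by -0.144 and -0.003.

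**Figure D4:**
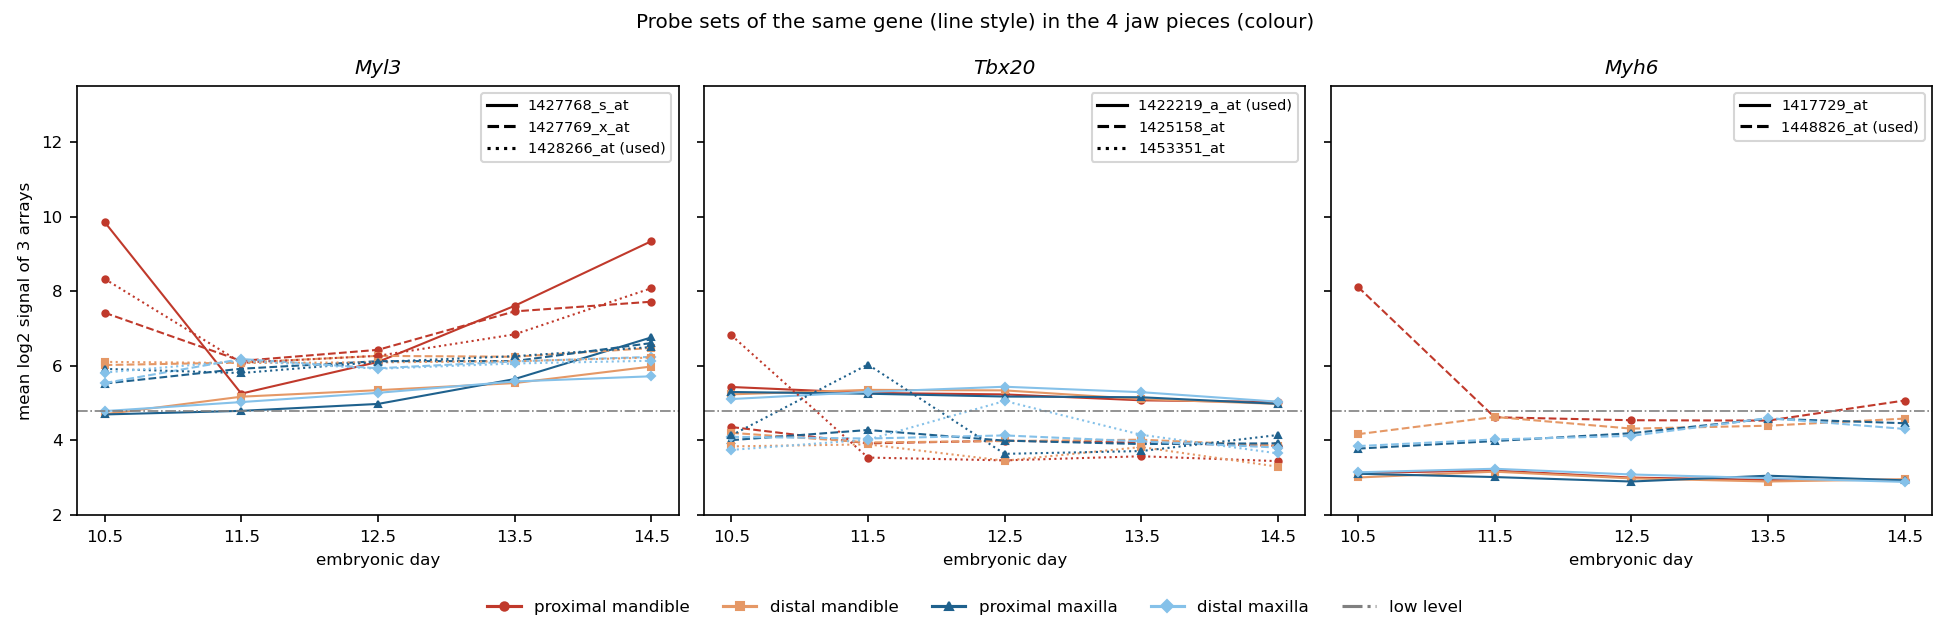
Mean log2 signal of 3 arrays (vertical axis) against embryonic day (horizontal axis) for each probe set (line style) of Myl3, Tbx20 and Myh6 in the 4 jaw pieces (colour). All 3 sets of Myl3 are high in the proximal mandible at E10.5 and E14.5, 1 of 3 sets of Tbx20 is high there at E10.5, and 1 of 2 sets of Myh6 stays low throughout.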

How the data were processed

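Total RNA (3 micrograms per array, per the labels' protocols) was labelled with biotin and hybridised to Affymetrix mouse arrays, 3 per group. The authors deposited log2 signals made with RMA, per the submitters' processing notes; this method corrects for background, normalizes and combines probes into probe sets. Its version, and whether all arrays were normalized together, are not given in the sources used here. The values were used as deposited. Of 45101 probe sets 64 controls were left out, 34945 had 1 gene symbol in the platform annotation, 932 had several and 9160 none. The probe set of highest mean was kept per gene, which left 18193 genes.

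The 20 group means were fitted in R 4.3.3 with limma 3.58.1 (lmFit, eBayes with trend, two-sided, Benjamini-Hochberg over all genes, 40 residual degrees of freedom). Differences are proximal minus distal, mandible minus maxilla and later minus earlier; the plan wrote the position difference as distal minus proximal, so its sign is turned. The spread of each gene is pooled over all groups, so a printed SE is not that of the groups compared. The fit was tested on simulated data. The 10 genes and the gene lists were chosen with earlier results of these data known, and the list of mature bone genes after the values were seen. Named genes are the 10, up to 4 of largest difference per list, and the 10 best correlated with Myl7 and Myl2. The 10 largest differences each way in the mandible at E10.5 are also named, without predicted models and sex-linked genes. Actc1, Tnnc1, Tnnt2, Myl4, Mybpc3 and Ankrd1 at other ages were named after their values were seen. So were Smpx at E10.5, Ryr2 and Nebl at E12.5, and Myod1, Pax7 and Corin from E13.5 to E14.5. Some list genes are not reported here. The number of arrays limits the precision. Alternatives were repeated quantile normalization, median centring, leaving out dim genes, averaging the probe sets of a gene, only the arrays compared, array weights, a 2-fold limit, a replicate block, and leaving out arrays. Of 30 same-numbered pairs of proximal and distal arrays, 10 deviated together (correlation over 0.1), among them all 3 of the maxilla at E10.5, and the fit has no replicate block.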

Additional observations from a re-analysis of the deposited data

Results flagged for a closer look

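For 9 results a test of the difference between groups passed (limma, Benjamini-Hochberg over all genes). At E12.5 the proximal minus distal difference was larger in the mandible than in the maxilla by 3.16 for Myh7 (SE 0.33, adjusted p = 2.4e-11) and by 0.73 for Tnni3 (SE 0.23, adjusted p = 0.00937), with both jaws in 1 batch. At E13.5 it was larger by 1.79 for Myl2 (SE 0.33, adjusted p = 6.87e-05), by 0.52 for Myl3 (SE 0.17, adjusted p = 0.031) and by 1.83 for Myh7 (SE 0.33, adjusted p = 4.33e-05). At E14.5 it was larger by 4.83 for Myl2 (SE 0.33, adjusted p = 8.8e-17) and by 1.49 for Myl3 (SE 0.17, adjusted p = 8.67e-10). At these last ages the jaws lie in different batches, and some of the Myl2 groups entering the differences are low. Within the mandible the difference grew from E13.5 to E14.5 by 3.69 for Myl2 (SE 0.33, adjusted p = 8.79e-12) and by 1.14 for Myl3 (SE 0.17, adjusted p = 9.83e-06). These SEs are pooled over all groups, and the proximal mandible arrays of Myl2 at E13.5 spread widely (SD 1.10). Under the alternatives the adjusted p of Myl2 reached 0.0165 for the jaw difference at E13.5 and 0.00173 for the growth within the mandible. On another probe set of Myl3 the proximal and distal means were 7.46 and 6.24 at E13.5, and 7.72 and 6.48 at E14.5. The call of Myl3 at E13.5 was lost in 7 of the 12 fits that left out 1 array, with adjusted p from 0.0618 to 0.152, under repeated quantile normalization (0.45, adjusted p = 0.0777) and with only the arrays compared (0.52, adjusted p = 0.115).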

How the results depend on the processing

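The 38 called differences of the 10 genes gave 643 values under the alternatives, of which 643 kept their direction, 588 kept their call and 55 lost it. The 2-fold limit uses the values of the main fit, so direction could not change there. Genes removed by the filter on dim genes give no value under it, and most alternatives share nearly all arrays. With a 2-fold limit the proximal against distal mandible had 0 at E11.5, 1 at E12.5 and 3 at E14.5, the maxilla 0 at E11.5 and 0 at E14.5, mandible against maxilla 0 in either piece at E11.5 and 1 in proximal tissue at E12.5, the jaw difference at E12.5 1, the proximal mandible from E13.5 to E14.5 2 and the proximal maxilla from E12.5 to E13.5 1. A filter on dim genes (no group mean of 8.45 or more) removed 7 of the 10, and left 0, 1 and 2 in the mandible at E11.5, E12.5 and E14.5, 1 in the maxilla at E11.5, 0 in either piece between jaws at E11.5 and 1 in proximal tissue at E12.5, 1 for the jaw difference at E12.5 and at E14.5, 1 for the change of the mandible difference, 2 for the proximal mandible and 1 for the proximal maxilla from E13.5 to E14.5. With array weights, whose iteration did not converge, the counts were 5 between jaws in proximal tissue at E11.5 and at E12.5, 2 in the maxilla at E12.5, 5 for the jaw difference at E14.5 and 6 for the proximal maxilla from E13.5 to E14.5. When the probe sets of a gene were averaged they were 3 between jaws in proximal tissue at E11.5, 2 in distal tissue at E12.5, 1 in the maxilla at E12.5 and 1 for the proximal maxilla from E13.5 to E14.5; there Tbx20 was called higher in the proximal maxilla at E11.5 (0.73). With only the arrays compared they were 0 in the mandible at E11.5, 1 in the maxilla at E12.5 and 2 for the proximal maxilla from E13.5 to E14.5. The last of these had 1 under repeated quantile normalization. It also had 1 without both mandible arrays of E11.5 with the highest medians over all genes, an alternative chosen after seeing the data. Leaving out 1 array gave 1 to 2 in the mandible at E11.5, 0 to 2 in the maxilla at E11.5, 2 to 4 for the proximal mandible from E13.5 to E14.5, 1 to 3 for the proximal maxilla from E12.5 to E13.5 and 0 to 1 for it from E13.5 to E14.5. The cause of these changes was not tested. Over all genes, the mandible comparison of E11.5 called 1625, 196 with a 2-fold limit and 6275 with array weights.

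Replicate numbers did not pair the samples throughout: over 30 same-numbered proximal and distal arrays of a jaw and age the correlation of deviations ran from -0.36 to 0.44 (median 0.0085), 10 were over 0.1 and 13 correlated best with their own number. In the maxilla at E10.5 all 3 pairs were over 0.1 (0.17 to 0.34) and best with their own number, and 0 of the 10 genes were called there with a replicate block as without it. A replicate block gave 1 of the 10 genes for the proximal maxilla from E13.5 to E14.5, against 0 without it, and moved no other count.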

Other observations

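The genes lowest in the proximal relative to the distal mandible at E10.5 did not include any of the 10 cardiac genes, and are given as values only. Predicted gene models and sex-linked genes were left out of this ranking, in both directions. Rgs5, a regulator of G protein signalling found in pericytes, differed by -2.56 on the log2 scale (8.50 against 11.06), followed by Nhlh2, Synpo2, Cavin2, Alx1, Tac2, Ndnf, Dio2, Rgcc and Cux2, which differed by -2.03. On the other side, 8 of the 10 largest proximal excesses of this ranking were genes of contractile filaments. Of these, 4 were among the 10 cardiac genes (Myl2, Myl7, Myh6 and Myh7) and 4 were others (Tnnt2, Myl4, Tnnc1 and Actc1). The remaining ones were Ankrd1 and Sh3bgr (3.17 and 3.04). Smpx, a gene of the shared list that was left out of the ranking, differed by 3.20.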
